A study of Mus musculus with 6 samples.

Results

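Replication and mitosis genes were followed in mouse mesenchymal stem cell clones with and without Dicer, the ribonuclease that releases mature microRNAs from their hairpin precursors. The 56 genes were listed by symbol: 16 regulators of entry into S phase, 17 genes of DNA replication, nucleotide supply and the S-phase checkpoint, and 23 genes of G2 and mitosis. Of these, 53 were measured by a transcript cluster assigned to a single gene, among 18997 genes measured in all. Rrm2, Ccnb1 and Foxm1 were not analysed here. Each gene was represented by its brightest cluster over 6 exon arrays, 1 array per clone, and values are log2 signal levels. Null clones are given in the order 6.8, 6.9, 12.2, 12.4, and parental clones in the order 6, 12.

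The arrays compared were of 4 Dicer-null clones, labelled Dicer-/-, of which 6.8 and 6.9 derive from line 6, and 12.2 and 12.4 from line 12. They were set against the 2 parental, Dicer-carrying clones 6 and 12, labelled Dicer+/+. All 6 come from the hindlimb bone marrow of a 1-year-old Dicerflox/flox mouse and carry a retrovirus encoding SV40 large T antigen. The null clones were made by infection with Adeno-Cre-GFP, sorting for GFP and a second round of cloning, steps with no matching array among the parental clones, so Dicer loss and those steps cannot be told apart. Cultures were undifferentiated and untreated, and no label tells of repeat cultures of a clone, so the spread behind a p-value is that between clones. Differences in RNA per cell and in the share of cells in each phase cannot be told apart in such bulk samples.

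The series as a whole touches these results at 4 points. The array titled 6.9 has 6.8 in its cell type label and was placed by title. It correlated at 0.92 to 0.94 with the other arrays, at 0.94 with clone 6.8, while pairs among the other arrays correlated at 0.94 to 0.98. Dicer1 had log2 levels of 4.66, 4.43, 4.47 and 4.64 in the null clones, and of 4.48 and 4.83 in the parental clones, from a cluster that does not isolate the deleted exons and so checks no label. Of 14 measured stromal markers 10 had a mean over the 6 arrays above a log2 level of 4. Thy1 at 2.62, Nt5e at 3.59, Lepr at 2.93 and Cspg4 at 3.56 were below it. The means of all 10 haematopoietic and all 9 endothelial markers were below it too. Vcam1, among the 10, had 6.26, 5.81, 8.01 and 7.69 in the null clones, but 3.58 and 3.98 in the parental clones. Cspg4 and Nt5e were above 4 in parental clone 12, at 5.10 and 4.38. Over the 257 expressed genes of chromosome 9 (mean log2 level of at least 6) the median difference from the own parent was -0.50, -0.61, -0.59 and -0.22 in the null clones, against -0.04, -0.10, 0.02 and 0.06 over all 5409 expressed genes.

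Entry into S phase is set by D-type cyclins with Cdk4 and Cdk6 and by E-type cyclins with Cdk2, which phosphorylate the retinoblastoma proteins and release E2F transcription factors. E2F factors then drive replication genes, while a complex of B-Myb and FoxM1 drives mitotic genes later in the cycle, through promoters that often carry CCAAT boxes and a cell cycle homology region (CHR). SV40 large T antigen binds the retinoblastoma proteins and p53, so these cultures carry a viral regulator of the same switch in all 6 clones. MicroRNAs act on this switch too: reported targets in human or mouse cells include Cdk6, Ccnd2 and Cdc25a for let-7, Ccne1, Ccnd1, Ccnd3, Wee1 and Chek1 for the miR-15/16 family, E2f1, Rbl2 and Ccnd1 for miR-17, Ccne2, E2f3 and Cdk4 for miR-34a and Cdkn1b for miR-221.

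The mature sequences of these microRNAs, all Dicer products, are shown because their reported targets are among the genes described, with the seed (bases 2 to 8) in capitals. None shares its seed with another. They are RefSeq sequences of assembly GRCm38.p6.
mmu-let-7a-5p, chr13:48538239-48538260, minus strand: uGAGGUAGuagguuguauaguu
mmu-miR-16-5p, chr14:61631936-61631957, minus strand, and chr3:69009918-69009939, plus strand: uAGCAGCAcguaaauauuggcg
mmu-miR-17-5p, chr14:115043684-115043706, plus strand: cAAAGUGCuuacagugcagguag
mmu-miR-34a-5p, chr4:150068473-150068494, plus strand: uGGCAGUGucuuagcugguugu
mmu-miR-221-3p, chrX:19146307-19146329, minus strand: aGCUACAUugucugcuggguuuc

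Cell cycle promoter words were counted in each group. Both strands of the 250 bases before the start of each gene were searched for 4 E2F words (TTTCCCGC, TTTGGCGC, TTTCGCGC and TTTGCCGC, which can overlap each other), for CCAAT and for the CHR word TTTGAA, and 42 of the 53 measured genes had a RefSeq promoter. An E2F word lay in 4 of 13 promoters of S-phase entry genes, 4 of 12 of replication and checkpoint genes and 1 of 17 of mitosis genes, against 2.90% of 15072 measured genes. CCAAT lay in 7 of 13 S-phase entry, 8 of 12 replication and 14 of 17 mitosis promoters, against 38.9% of measured genes. TTTGAA lay in 4 of 13, 1 of 12 and 6 of 17 promoters of these groups, against 15.4%. Both words lay together in 3 of 13, 1 of 12 and 6 of 17, against 5.59%. Differences between the groups were not tested. A match is a description of the letters and does not show a bound site.

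Of these, 3 promoters are shown as the 250 bases up to the start, with matched words in capitals: Cenpa, the member with the largest difference, Ccnb2, a mitotic cyclin gene, and Mcm6, a helicase subunit gene. Positions are counted from the start, with -1 the base before it.
Cenpa, chr5:30666636-30666885, plus strand: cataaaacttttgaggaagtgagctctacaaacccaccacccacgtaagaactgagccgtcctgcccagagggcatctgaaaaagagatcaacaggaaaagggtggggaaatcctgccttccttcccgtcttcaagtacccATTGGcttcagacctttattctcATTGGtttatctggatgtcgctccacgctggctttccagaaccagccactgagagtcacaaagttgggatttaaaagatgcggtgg
Ccnb2, chr9:70421555-70421804, minus strand: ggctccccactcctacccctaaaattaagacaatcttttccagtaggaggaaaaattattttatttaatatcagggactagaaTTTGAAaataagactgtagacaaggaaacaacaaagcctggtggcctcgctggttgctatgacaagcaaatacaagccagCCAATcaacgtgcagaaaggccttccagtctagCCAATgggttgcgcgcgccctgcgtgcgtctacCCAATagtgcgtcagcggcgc
Mcm6, chr1:128359706-128359955, minus strand: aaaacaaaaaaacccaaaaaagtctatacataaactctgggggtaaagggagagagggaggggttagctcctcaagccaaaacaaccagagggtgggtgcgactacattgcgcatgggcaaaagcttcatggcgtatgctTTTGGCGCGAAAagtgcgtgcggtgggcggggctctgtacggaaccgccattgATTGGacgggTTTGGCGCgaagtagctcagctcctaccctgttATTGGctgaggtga
Ccnb2 had CCAAT words starting at -87, -54 and -21 and a CHR word at -167. Mcm6 had E2F words at -110, -106 and -47, the first pair overlapping, and CCAAT words at -57 and -14. The window of Cenpa held CCAAT words at -109 and -86 and neither of the other motifs.

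**Figure D1:**
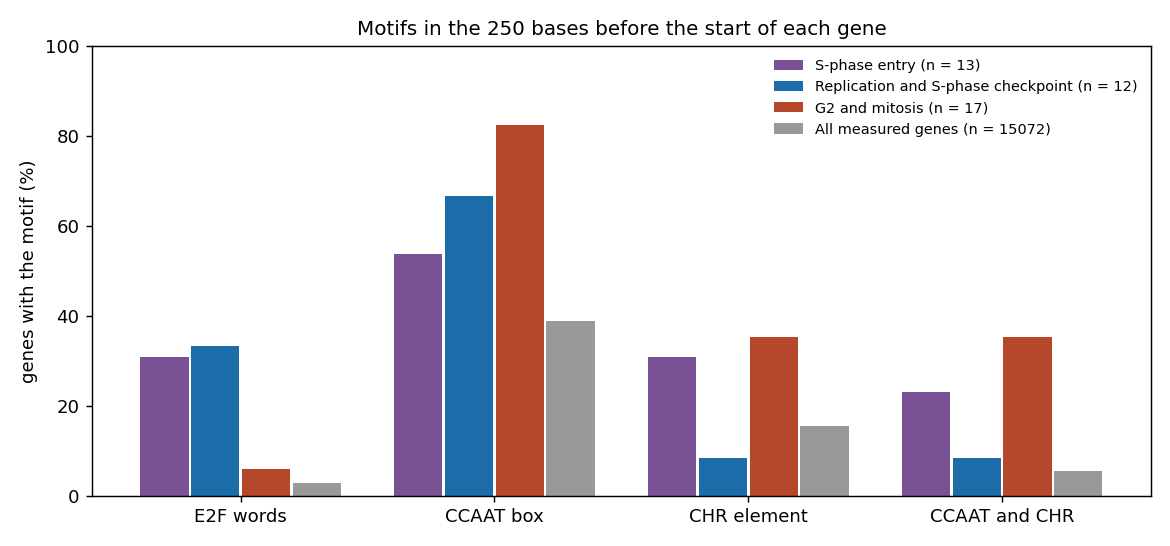
Share of genes (percent, vertical axis) whose 250 bases before the start hold an E2F word, a CCAAT box, a CHR word, or CCAAT and CHR together, for the 3 groups of genes and for all measured genes. E2F words stand at 30.8% of S-phase entry and 33.3% of replication genes, against 2.90% of all measured genes. CCAAT with CHR stands at 35.3% of mitosis and 23.1% of S-phase entry genes, against 5.59%.

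The first comparison asked whether these genes differed between each null clone and its own parent. None of the 53 passed limma with Benjamini-Hochberg adjustment over all genes, with the parental line as a block, where 0.590% of all genes and 0.629% of expressed genes passed. Cenpa had the largest difference, and the replication and checkpoint genes had the lowest median size of difference of the 3 groups. At an unadjusted p under 0.05 there were 5 of 53, Cenpa, Kif23, Bub1b, Ccne1 and Ccnd3, or 9.43%, beside 13.7% of all genes and 22.3% of expressed genes. The mean difference lay within 0.5 log2 units in 44 of 53 genes, 83.0%, which is close to the 81.4% of all genes and above the 67.4% of expressed genes. Their median was -0.05, against -0.02 over all genes.

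**Figure D2:**
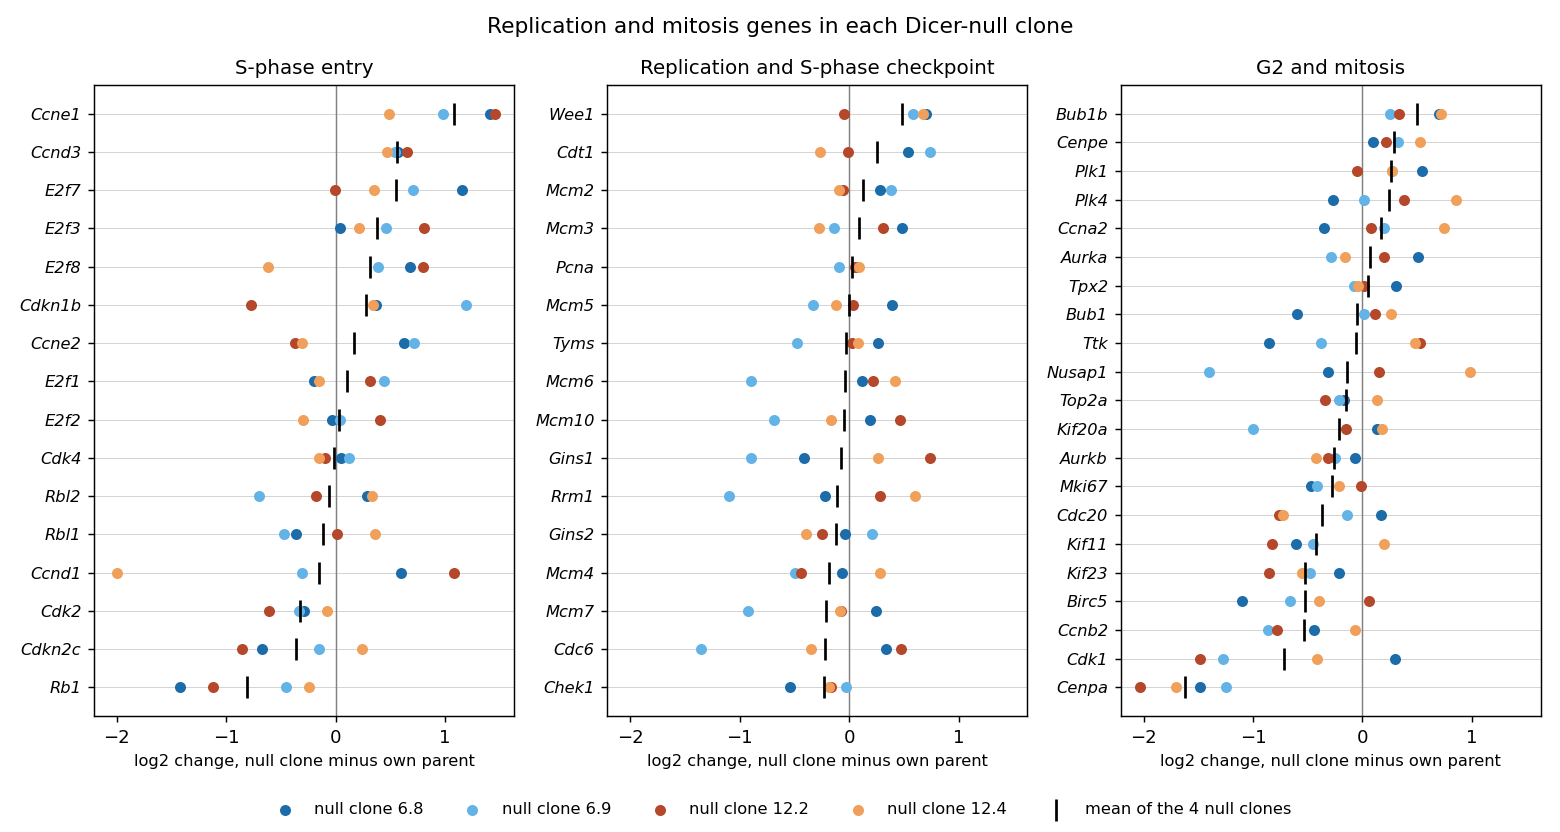
Log2 difference of each null clone from its own parent (horizontal axis) for the 53 measured genes, in 3 panels by role, with 1 coloured point per null clone and a black tick for the mean. Most ticks lie within 0.5 of 0, Cenpa is at -1.62 and Ccne1 at 1.08, and the points of clone 6.9 lie left of the others for several replication genes.

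Of the 4 measured cyclin genes in the listed S-phase entry group, Ccne1 and Ccnd3 were above both parents in all null clones. Ccnd1 and Ccne2 differed in sign between clones. Ccnd2, from the other lists, is described further on. Ccne1, the cyclin E1 partner of Cdk2, had log2 levels of 8.69, 8.27, 8.55 and 7.58 in the null clones, against 7.28 and 7.10 in the parental clones. Every null clone lay above both parents, clone 12.4 by the least. The difference was 1.08 ± 0.31 (standard error of the limma fit), or 2.12-fold (limma, adjusted p = 0.244).

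Ccnd3, cyclin D3, had levels of 5.34, 5.31, 5.62 and 5.43 in the null clones, against 4.77 and 4.97 in the parents. Again no null clone overlapped the parents, and the differences from the own parent were alike, between 0.47 and 0.65. Their mean was 0.56 ± 0.10 (limma, adjusted p = 0.112). Over all genes, 9.44% had all 4 null clones above both parents, and 15% of expressed genes, against 2 of 53 here, 3.77%.

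Ccnd1, cyclin D1, had 9.92, 9.01, 10.93 and 7.86 in the null clones, against 9.32 and 9.86 in the parental clones. It was the gene on which the null clones of a line were furthest apart, with 1.08 in clone 12.2 and -1.995 in clone 12.4 relative to clone 12. Its mean difference of -0.16 ± 0.91 (adjusted p = 0.986 in limma) lies between those values. Ccne2, cyclin E2, was higher in both line 6 null clones, by 0.63 and 0.71, and lower in both line 12 null clones, at -0.37 and -0.31. The limma interaction between the lines was -1.01 ± 0.21 for Ccne2, with an unadjusted p of 0.0101 and an adjusted p of 0.9997.

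Of the listed kinases of the switch, Cdk4, the partner of D-type cyclins, had 11.78, 11.85, 11.57 and 11.51 in the null clones, against 11.74 and 11.66 in the parents, a difference of -0.02 ± 0.10. Cdk2 had 9.40, 9.36, 8.82 and 9.35 in the null clones, against 9.69 and 9.43 in the parents. All null clones were below both parents, but clones 6.8, 6.9 and 12.4 lay within 0.1 of clone 12, and the difference was -0.33 ± 0.17 (limma, adjusted p = 0.53). It was -0.14 with chromosome medians centred.

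Among inhibitors, Rb1, which encodes the retinoblastoma protein that holds E2F in check, had 5.51, 6.48, 4.56 and 5.44 in the null clones, against 6.93 and 5.69 in the parental clones. Each null clone was below its own parent, but the parents differed from each other by more than the mean difference of -0.81 ± 0.38 (adjusted p = 0.47 in limma). The related pocket protein genes Rbl1 and Rbl2 had differences of -0.12 ± 0.19 and -0.07 ± 0.33. Cdkn1b, the inhibitor p27 of cyclin E complexes, ranged over the null clones between 7.40 in 12.2 and 9.69 in 6.9, with parents at 8.50 and 8.17. Cdkn2c, the Cdk4 and Cdk6 inhibitor p18, had a difference of -0.36 ± 0.35.

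Of the E2F genes, E2f3, an activator, was higher than the own parent in all 4 null clones, by 0.04, 0.46, 0.80 and 0.21, with a mean of 0.38 ± 0.23 (limma, adjusted p = 0.606). The activator E2f1 had 0.10 ± 0.24. E2f2 lay near the floor of the arrays, with a mean level of 3.21 over all clones, and 0.03 ± 0.22. The atypical repressors E2f7 and E2f8 had 0.55 ± 0.25 and 0.31 ± 0.42. A second, dimmer cluster of E2f8 gave a mean difference of -0.32, so its clusters disagree in sign. In this group of 16 genes 3 were higher and 2 lower than the own parent in all 4 null clones, or 18.8% and 12.5%. Beside these stand 13.1% and 18.9% of all genes and 19.9% and 21.4% of expressed genes. The group median was 0.06.

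**Figure D3:**
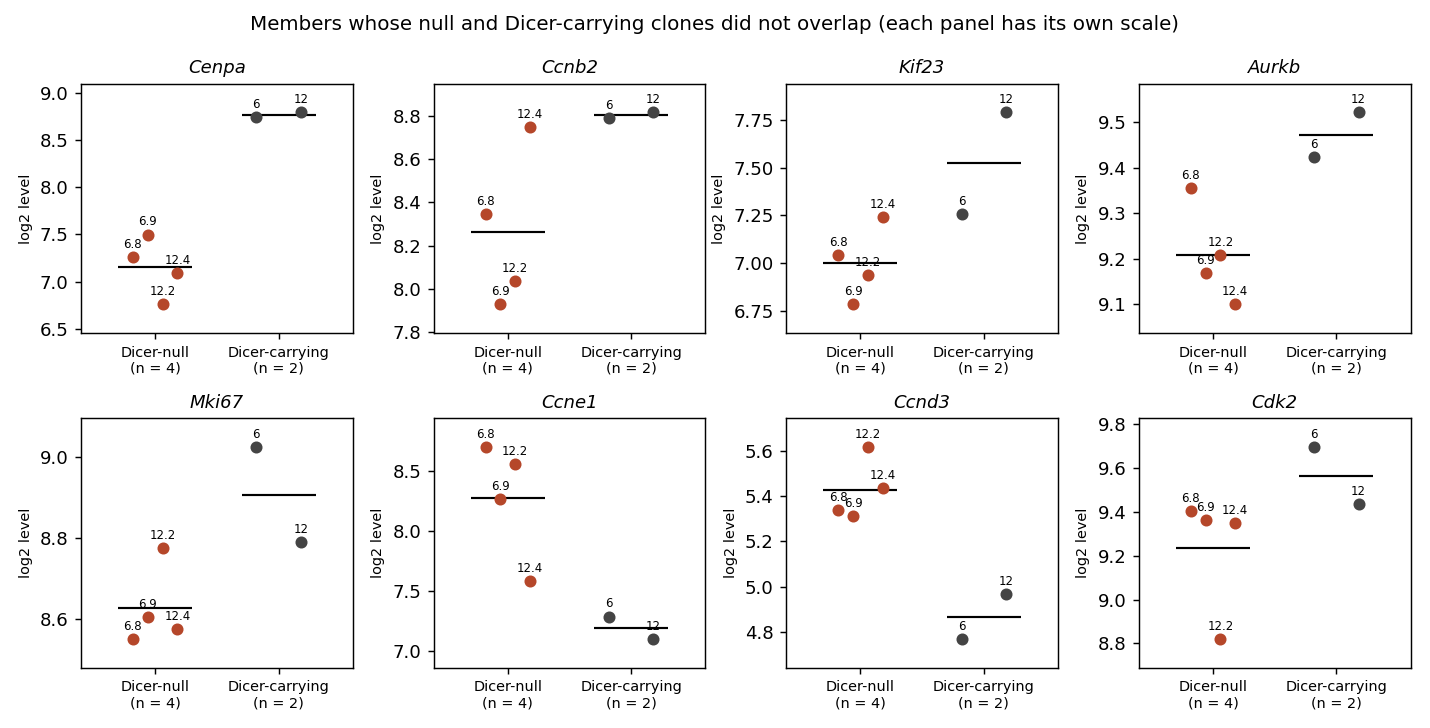
Log2 levels (vertical axis, a separate scale in each panel) of the 8 genes whose 4 Dicer-null clones all lay on one side of the 2 Dicer-carrying clones, with points labelled by clone and lines at group means. Cenpa shows the widest gap, while the null clone nearest to a parent is 12.4 for Ccnb2, Kif23 and Ccne1.

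No replication or checkpoint gene had a mean difference beyond 0.5. Pcna, the sliding clamp of DNA polymerases, had 11.29, 11.14, 11.12 and 11.17 in the null clones, against 11.23 and 11.07 in the parental clones. The difference was 0.03 ± 0.10, smaller than the gap between the parents. A dimmer cluster of Pcna, with a mean difference of -0.12, had 9.75 in clone 6.9, below 10.42 to 10.61 in the other null clones. Of the 16 measured genes of this group, 0 had all null clones on one side of the parents, where 9.44% of all genes were above and 13.9% below both. At an unadjusted p under 0.05 in limma there were 0 of 16, where 13.7% of all genes were. These shares amount to only a few of 16 genes. The group median was -0.04, and 0.15 without clone 6.9.

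The helicase that opens DNA at origins is made of Mcm2 to Mcm7, and the mean differences of its 6 subunit genes lay between -0.21 for Mcm7 and 0.13 for Mcm2. Mcm7 had 11.51, 10.35, 11.37 and 11.36 in the null clones, against 11.27 and 11.44 in the parents, so that clone 6.9 stood below all other arrays. Its second cluster gave 8.62 in clone 6.9 and 9.72 to 10.10 in the other null clones. Mcm6 had 10.01, 8.996, 9.53 and 9.73 in the null clones, against 9.89 and 9.31 in the parents, again lowest in clone 6.9. Mcm2 differed in its order, with 10.67, 10.76, 10.14 and 10.11 in the null clones, against 10.38 and 10.20 in the parents. The median difference of the 6 subunit genes was 0.26, -0.41, -0.01 and -0.08 in the null clones.

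Cdc6, Rrm1 and Tyms also had their lowest level in clone 6.9. Cdc6, which loads the helicase onto origins, had 7.50, 5.81, 7.97 and 7.14 in the null clones, against 7.16 and 7.49 in the parents. Clone 6.9 was 1.35 below its parent and the mean difference was -0.22 ± 0.55. Rrm1, the large subunit of ribonucleotide reductase, had 10.19, 9.31, 10.14 and 10.46 in the null clones, against 10.41 and 9.85 in the parents. It was 1.10 lower in clone 6.9 than in clone 6, and 0.28 and 0.61 higher in clones 12.2 and 12.4 than in clone 12. Tyms, thymidylate synthase, had 9.02, 8.27, 8.98 and 9.03 in the null clones, against 8.75 and 8.95 in the parents, once more lowest in clone 6.9. Cdt1, the partner of Cdc6 in loading, and Gins2, a subunit of the active helicase, went the other way in clone 6.9, at 0.74 and 0.21 above clone 6, while Gins1 was 0.90 and Mcm10 was 0.68 below it.

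In all, clone 6.9 had the lowest level of the 4 null clones in 8 of the 16 replication and checkpoint genes, beside 34.0% of expressed genes and 24.4% of all genes. It lay below its parent in 12 of the 16, beside 2989 of 5409 expressed genes and 9200 of all 18997 genes. The group median was 0.22, -0.40, 0.03 and -0.08 in the null clones. Over expressed genes, clone 6.9 was more than 1 log2 unit below its parent in 13.7%, against 6.12%, 8.25% and 5.08% in clones 6.8, 12.2 and 12.4. That clone thus had more low values across the whole array as well, and their part in the result was not tested.

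The checkpoint kinases completed the group. Wee1, which holds Cdk1 inactive, had 8.72, 8.60, 7.92 and 8.65 in the null clones, against 8.02 and 7.97 in the parents. Clones 6.8, 6.9 and 12.4 were 0.58 to 0.70 above their own parent while 12.2 was level with clone 12, and the mean was 0.48 ± 0.24 (limma, adjusted p = 0.496). Chek1, which halts the cycle when replication stalls, had 4.83, 5.34, 5.73 and 5.71 in the null clones, against 5.37 and 5.89 in the parents. It was lower than the own parent in all 4 clones, by a mean difference of -0.23 ± 0.17, but it lies on chromosome 9 and had 0.29 with chromosome medians centred.

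**Figure D4:**
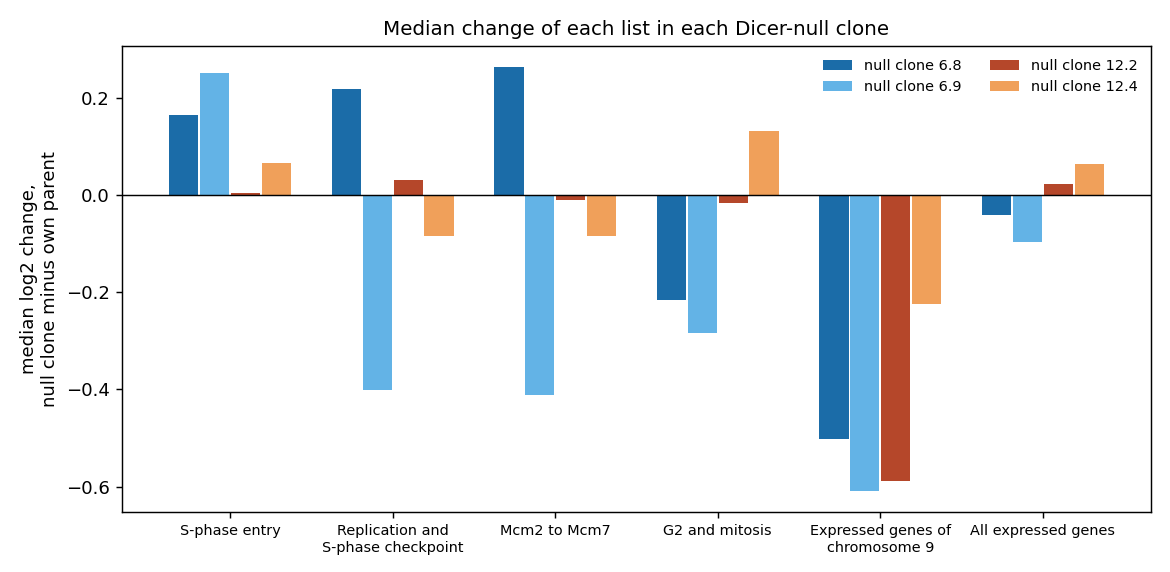
Median log2 difference from the own parent (vertical axis) in each Dicer-null clone, for the 3 groups of genes, the helicase subunit genes Mcm2 to Mcm7, the expressed genes of chromosome 9 and all expressed genes. Replication genes reach -0.40 in clone 6.9 only, while chromosome 9 genes lie below 0 in all 4 clones.

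Mitotic genes held the clearest single difference. Cenpa, the histone H3 variant that marks centromeres, had 7.26, 7.50, 6.76 and 7.08 in the null clones, against 8.74 and 8.79 in the parental clones. All null clones lay more than 1 log2 unit below both parents, which differed by only 0.05 between themselves. The difference was -1.62 ± 0.18, 0.326 of the parental level (limma, adjusted p = 0.0548), above the threshold of 0.05. The adjusted p in limma was 0.0393 without the replicate block, 0.0484 over genes of a mean of at least 4, 0.0447 under trend and robust moderation and 0.0438 with chromosome medians centred, and between 0.0923 and 0.364 with any 1 array left out. Chromosome 5, where Cenpa lies, had a median difference of -0.05 over 375 expressed genes.

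Ccnb2, cyclin B2, which with Cdk1 drives entry into mitosis, had 8.34, 7.93, 8.04 and 8.75 in the null clones, against 8.79 and 8.81 in the parents. Clone 12.4 lay within 0.1 of both parents, and the difference was -0.54 ± 0.25 (limma, adjusted p = 0.468). Kif23, a kinesin of the cytokinetic midzone, had 7.04, 6.78, 6.94 and 7.24 in the null clones, against 7.26 and 7.79 in the parents. The groups were apart by under 0.1 there too, and the difference was -0.52 ± 0.16 (limma, adjusted p = 0.272). Both genes lie on chromosome 9, and with chromosome medians centred Ccnb2 had -0.02 and Kif23 -0.01.

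Aurkb, the kinase of the chromosomal passenger complex, had 9.35, 9.17, 9.21 and 9.10 in the null clones, against 9.42 and 9.52 in the parents, a difference of -0.26 ± 0.12. Mki67, the proliferation marker Ki-67, had 8.55, 8.61, 8.77 and 8.58 in the null clones, against 9.02 and 8.79 in the parents. Its difference was small, -0.28 ± 0.13, with adjusted p of 0.433 for Aurkb and 0.458 for Mki67 in limma. Centred on chromosome medians, the differences were -0.37 for Aurkb and -0.46 for Mki67. With Cenpa, Ccnb2 and Kif23 this made 5 of 21 mitotic genes, 23.8%, with all null clones below both parents, beside 13.9% of all genes and 16.2% of expressed genes.

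The spindle checkpoint genes pointed in both directions. Bub1b, which encodes the checkpoint kinase BubR1, had 9.35, 8.91, 8.59 and 8.97 in the null clones, against 8.66 and 8.26 in the parents. It was above the own parent in all 4, by a mean difference of 0.50 ± 0.19 (limma, adjusted p = 0.351), although clone 12.2 was below clone 6 in level. Cenpe, a kinetochore kinesin, had 0.29 ± 0.14 and was also above the own parent in all 4. Bub1 had -0.05 ± 0.23 and Cdc20, the activator of the anaphase-promoting complex, -0.37 ± 0.21. Ttk, the gene of the kinase Mps1 on chromosome 9, was below the parent in clones 6.8 and 6.9, at -0.85 and -0.38, and above it in clones 12.2 and 12.4, at 0.53 and 0.48, with an interaction of 1.12 ± 0.36 (unadjusted p = 0.0413, adjusted p = 0.9997 in limma).

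The mitotic kinases Aurka and Plk1 and the centriole kinase Plk4 had mean differences of 0.06 ± 0.26, 0.26 ± 0.16 and 0.25 ± 0.25, and a dimmer cluster of Plk4 had -0.05. Cdk1 itself had 10.41, 8.84, 8.92 and 9.99 in the null clones, against 10.12 and 10.41 in the parents. Clones 6.9 and 12.2 were 1.28 and 1.48 below their parents, clone 6.8 was 0.30 above its own, and the mean was -0.72 ± 0.55. Birc5, the passenger protein survivin, had -0.53 ± 0.26, Ccna2, cyclin A2 of S phase and G2, 0.17 ± 0.28, and Top2a, the topoisomerase that untangles sister chromatids, -0.15 ± 0.16.

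Of the spindle genes, Tpx2, which activates Aurka, had 0.05 ± 0.14. The motor genes Kif11, of spindle pole separation, and Kif20a, of cytokinesis, had -0.42 ± 0.31 and -0.21 ± 0.36. Nusap1, which binds spindle microtubules, differed most between the parents, with 8.16 in clone 6 and 6.47 in clone 12. Its null clones spread between 6.63 in 12.2 and 7.84 in 6.8, inside the parental range. The median over the 21 mitotic genes was -0.15, and -0.22, -0.28, -0.02 and 0.13 in the null clones. Clone 12.2 had the lowest level of the 4 in 11 of the 21, beside 27.9% of expressed genes and 21.2% of all genes. That count ranks levels and does not set the clone against its own parent. Among the 11, Nusap1, Bub1, Ccna2, Plk4, Cenpe and Bub1b were above clone 12 in clone 12.2, and the others were below it.

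Over all 53 genes 5 were higher and 8 lower than the own parent in all 4 null clones, or 9.43% and 15.1%, beside 13.1% and 18.9% of all genes and 19.9% and 21.4% of expressed genes. All null clones lay below both parents in 6 of the 53, 11.3%, beside 13.9% of all genes and 16.2% of expressed genes. In single clones, genes more than 1 log2 unit above the parent numbered 2, 1, 2 and 0 in the null clones, where 3.04%, 4.58%, 5.14% and 5.14% of all genes were. Genes more than 1 log2 unit below it numbered 3, 5, 3 and 2, where 4.14%, 6.96%, 5.14% and 3.52% of all genes were. These single-clone values have no replicate.

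The second comparison asked whether the lines differed in their response. The limma interaction called 0 of 53 genes and 0 of 18997 (0.00%), with 2 of the 53, Ccne2 and Ttk, and 569 of all genes (3%) at an unadjusted p under 0.05. Each line has only 1 parental array and the fit 2 residual degrees of freedom, so this does not show that the lines respond alike. In 9 of 53 genes, 17.0%, both null clones of a line lay on one side of their parent and both of the other line on the other, beside 16.0% of all genes and 9.69% of expressed genes.

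Other genes of the same pathways, from lists drawn up by known role, had 0 of 25 S-phase entry genes, 0 of 42 replication genes and 0 of 48 mitosis genes past the threshold in limma. At an unadjusted p under 0.05 in limma there were 9 of 25 (36.0%), 6 of 42 (14.3%) and 9 of 48 (18.8%). Beside these stand 9.43% of the 53 genes, 13.7% of all genes and 22.3% of expressed genes. Their medians were 0.01, -0.07 and -0.19. Ccnd2, cyclin D2, had the largest positive value, with 5.73, 7.39, 9.28 and 7.28 in the null clones, against 5.16 and 5.53 in the parents. All null clones were above both parents, from 0.57 over the own parent in clone 6.8 to 3.75 in clone 12.2, and the mean was 2.07 ± 0.79 (limma, adjusted p = 0.364). Cdkn2d, the Cdk4 and Cdk6 inhibitor p19, had 7.35, 7.74, 6.99 and 7.57 in the null clones, against 8.69 and 8.57 in the parents, a difference of -1.22 ± 0.22 (adjusted p = 0.11).

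Gins3, a subunit of the active helicase, had 5.34, 5.59, 5.05 and 5.68 in the null clones, against 6.59 and 6.39 in the parents. The null clones were apart from the parents, by -1.07 ± 0.21 (limma, adjusted p = 0.129), while Gins1 and Gins2 of the same complex had -0.08 ± 0.34 and -0.12 ± 0.15. Pold3, a subunit of DNA polymerase delta, had 0.86 ± 0.24. Spc24, of the kinetochore Ndc80 complex, had 6.00, 5.66, 5.62 and 6.16 in the null clones, against 6.96 and 8.31 in the parents, a difference of -1.77 ± 0.35 (adjusted p = 0.131). The phosphatase gene Cdc25b, which activates Cdk1, had 0.72 ± 0.24.

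Chromosome 9 recurred among the lower values. Of the 168 measured genes of these 6 lists 13 lay on chromosome 9. All null clones were below both parents in 23 of the 168, beside 13.9% of all genes and 16.2% of expressed genes. Of these 23 genes, 7 lay on chromosome 9. These 7 included Cdkn2d and Spc24, whose differences were -0.70 and -1.26 with chromosome medians centred. The median difference over the 257 expressed genes of chromosome 9 was -0.48, and how many of them lay below both parents was not counted. The part of the chromosome 9 values in these differences was not tested.

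The reported microRNA targets listed beside the seeds were assembled after the values were seen, and their values are a description. The kinase gene Cdk6, a reported let-7 target, had 8.42, 7.67, 8.91 and 7.94 in the null clones, against 6.19 and 6.16 in the parents. All null clones were above both parents, a difference of 2.06 ± 0.37 (limma, adjusted p = 0.11). Cdc25a, also a reported let-7 target, had 0.26 ± 0.10. Among reported miR-16 targets Ccne1, Ccnd3 and Wee1 had positive differences and Ccnd1 and Chek1 negative ones, and the reported miR-17 targets E2f1 and Rbl2 had 0.10 and -0.07. The miR-221 target Cdkn1b had 0.28 ± 0.46, and the miR-34a targets E2f3, Ccne2 and Cdk4 had 0.38, 0.16 and -0.02. MicroRNA levels were not measured on these arrays.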

How the data were processed

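RNA of 6 clones was labelled with biotin and hybridised to Affymetrix exon arrays, per the labels. The deposited log2 values cover 44343 transcript clusters, for which Partek 6.5 and RMA are named, with neither role nor order, per the submitters' processing notes. The array medians lay between 3.01 and 3.21. Values on one common scale carry no information on RNA content per cell. No genome build is given in the sources used here. Precision is limited by there being 1 array per clone.

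Clusters were named from the platform annotation, with symbols updated through Entrez identifiers in RefSeq's GRCm38.p6 gene table, which 22485 of 22781 single-gene clusters matched. The 2085 clusters listed with several genes and the 19477 with none were left out. Differences, null minus Dicer-carrying, were fitted in limma 3.58.1 (R 4.3.3) with a fixed block for parental line, 3 residual degrees of freedom and Benjamini-Hochberg adjustment over 18997 genes at 0.05. The block follows from the derivation of the null clones; the consensus correlation within lines was -0.13 when the block was random. The code of the fit was checked on simulated data by the mean size of added differences, and its power is not reported here. Expressed genes had a mean of at least 6. Alternatives were other blocks, scalings, cluster summaries, filters and moderations, each array left out, and chromosome centring, which was chosen after seeing the data. The genes and lists were chosen with earlier results of these data known. Named by rule were genes past the threshold, the 4 largest differences in each direction of each group among those with 1 sign in every null clone (or the largest), genes whose groups did not overlap, and the extremes of the other lists. Of these, Cenpe, Pold3 and Cdc25b are given by their mean difference only, and E2f3 by its differences without levels. The rest were chosen after their values were seen. Promoters and microRNAs are RefSeq sequences.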

Additional observations from a re-analysis of the deposited data

Results flagged for a closer look

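The 4 null clones were searched for a clone apart from the rest in 53 gene levels and 4 group medians, by Dixon's 95% critical value. A clone stood apart in 6 of the 57, all of them gene levels, where chance gives about 1 in 20. The same value was passed by 11.3% of the 53 genes, 5.88% of all genes and 5.99% of expressed genes. The null clones come as a pair from each line, so they are not 4 exchangeable values. In clone 6.9 the log2 levels of Mcm7, 10.35, and Tyms, 8.27, were below those of the other null clones. In clone 12.2 Cdk2 at 8.82 and Wee1 at 7.92 were below the others. In clone 6.8 Tpx2 at 9.37 was above the other null clones and Ttk at 5.41 below them. No difference between the lines passed its test.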

How the results depend on the processing

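Of 300 values of 20 named genes under 15 alternatives, 295 kept their direction and their side of the threshold. Exceptions were Cenpa, which passed in limma under 4 alternatives, and Chek1, which turned to 0.29 with chromosome medians centred. Directions could not turn under other blocks, sibling means, the filter on the mean or the other moderation, which left the differences as they were. With 1 array left out few or no genes passed, so keeping the same side there says little. The 295 is thus no measure of stability. The count of the 53 genes past the threshold was 1 in place of 0, Cenpa, with no replicate block, with only genes of a mean of at least 4, under trend and robust moderation and with chromosome medians centred, and 0 under the others. Over all genes the count was 112, and 220 with no replicate block, 15 with the mean of sibling null clones and 233 with trend and robust moderation. It was 12 without clone 6.8, 13 without 6.9, 17 without 12.2, 2 without 12.4 and 0 without either parent, which leaves that line's null clones no parent. Without clone 12.4 the median of the S-phase entry genes was 0.19 in place of 0.06, and without 1 array it ranged between 0.01 and 0.19. Without 1 array the replication median of -0.04 ranged between -0.18 (without clone 12) and 0.15 (without clone 6.9). It was also above 0, at 0.03, without clone 6, and at 0.04 with arrays centred on their medians. The mitosis median of -0.15 ranged between -0.29 (without clone 12) and -0.02 (without clone 6), and was -0.07 with arrays centred. With a fold of 0.5 log2 units, genes above the parent numbered 11, 7, 7 and 7 in the null clones in the order 6.8, 6.9, 12.2, 12.4. Genes below it numbered 8, 13, 10 and 5 in the same order. The shares of all genes at that fold were not counted, so these counts have no reference. The interaction count stayed 0 in each alternative run, and the interaction was not run with other blocks, sibling means, other moderation or a parent left out. The cause of these shifts was not tested, beyond fewer arrays leaving fewer degrees of freedom. Dim genes such as E2f2 are limited by the floor of the arrays.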
